A study of Mus musculus with 2 samples.

Results

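The genes described here are the 9 peptidases of the intestinal brush border Anpep, Ace, Dpp4, Mme, Enpep, Mep1a, Mep1b, Xpnpep2 and Naaladl1, which were taken by symbol from the 55357 genes of the count tables. Each symbol stood on 1 row, and all 9 were detected in both libraries. They were measured by droplet-based single-cell RNA sequencing of crypt-enriched small intestinal epithelium from mice, with 1 library per genotype. The Adipfl/fl library came from control littermates whose adiponectin gene (Adipoq) carried loxP sites but which had no Cre, and the Adipfl/flpVilli-CreT library (called the Villi-Cre library below) from mice with the same floxed alleles plus Cre recombinase under the villin promoter, which is active in epithelial cells of the gut. Per the study's legend each library was a pool of 8-week-old male mice. The tissue was cut into pieces and dissociated with collagenase, papain and DNase, and dead cells were removed with magnetic beads. Because a genotype was 1 library, no test between genotypes was possible, and library and genotype cannot be told apart.

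Dietary protein is broken by pepsin and the pancreatic proteases into oligopeptides, and the peptidases on the microvilli of enterocytes finish the digestion to amino acids and to dipeptides and tripeptides that transporters carry into the cell. Enterocytes arise from dividing crypt cells and move up the villus until they are shed at its tip, and they switch their genes on and off on the way. Anpep (aminopeptidase N) removes neutral residues and Enpep (glutamyl aminopeptidase) acidic residues from the N-terminus. Dpp4 removes dipeptides after proline or alanine and is also a surface protein of T cells, where it is known as CD26, Xpnpep2 is a membrane-bound aminopeptidase that cuts before proline, and Ace removes dipeptides from the C-terminus and also forms angiotensin II. Mme (neprilysin) and the meprins Mep1a and Mep1b are endopeptidases, and Naaladl1 belongs to the family of glutamate carboxypeptidase II.

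A set of 5 promoters is printed because their genes carry the differences described below. Anpep had the most UMIs of the 9, and Enpep was high earliest on the villus. Mep1a was higher in villus tip-like than in mid-villus-like cells as a class, and Ace was lower in the Villi-Cre library. Dpp4 had more UMIs than expected from enterocyte RNA in crypt cells and T cell-like barcodes, where all 9 genes had some UMIs. Each line gives the 250 bases before a RefSeq start of the gene on the gene's own strand, from GRCm38.p6 (mm10), in lower case with matches to any of 4 short motifs in capitals.
Anpep: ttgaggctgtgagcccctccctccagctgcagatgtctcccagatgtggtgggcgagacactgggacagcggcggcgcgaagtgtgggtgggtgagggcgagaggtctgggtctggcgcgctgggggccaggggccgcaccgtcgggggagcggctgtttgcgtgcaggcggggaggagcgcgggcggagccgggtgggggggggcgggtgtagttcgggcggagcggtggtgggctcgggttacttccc
Enpep: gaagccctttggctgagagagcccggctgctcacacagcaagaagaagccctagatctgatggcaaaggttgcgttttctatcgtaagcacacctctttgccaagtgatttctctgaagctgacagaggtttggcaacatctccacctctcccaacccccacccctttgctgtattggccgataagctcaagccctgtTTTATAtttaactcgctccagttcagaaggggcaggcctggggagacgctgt
Mep1a: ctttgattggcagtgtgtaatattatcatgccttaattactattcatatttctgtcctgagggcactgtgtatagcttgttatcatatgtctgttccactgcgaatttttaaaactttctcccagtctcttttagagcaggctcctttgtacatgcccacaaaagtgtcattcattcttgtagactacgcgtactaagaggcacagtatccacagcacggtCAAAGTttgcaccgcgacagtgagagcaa
Ace: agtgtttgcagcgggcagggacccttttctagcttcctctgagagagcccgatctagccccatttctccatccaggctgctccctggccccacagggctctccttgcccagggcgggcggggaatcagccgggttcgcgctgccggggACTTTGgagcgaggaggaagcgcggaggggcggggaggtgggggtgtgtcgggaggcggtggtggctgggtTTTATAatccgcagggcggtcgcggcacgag
Dpp4: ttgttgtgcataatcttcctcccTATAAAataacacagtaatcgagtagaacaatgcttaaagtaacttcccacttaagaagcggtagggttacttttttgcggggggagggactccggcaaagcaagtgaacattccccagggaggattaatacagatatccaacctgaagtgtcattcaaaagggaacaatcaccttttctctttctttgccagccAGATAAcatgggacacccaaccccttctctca
These lie at chr7:79848211-79848460 (minus strand, Anpep), chr3:129332750-129332999 (minus, Enpep), chr17:43502774-43503023 (minus, Mep1a), chr11:105967698-105967947 (plus, the upstream start of Ace) and chr2:62412232-62412481 (minus, Dpp4). The motifs, searched on both strands, were GTTAAT, which HNF1 binds, AGATAA, which GATA factors bind, CAAAGT, a part of the HNF4 repeat, and TATAAA, the TATA box. The search covered 10 RefSeq promoters from 7 of the 9 genes, without Mep1b and Naaladl1. GTTAAT was in 0 of the 10, beside 6.43% of all 32851 mouse promoters searched. AGATAA was in 1 of the 10 (9.99% of all) and CAAAGT in 4 of the 10, from 3 genes (12.6% of all). TATAAA was in 3 of the 10 (12.4% of all). Mep1a held CAAAGT 29 bases before the start, Enpep TATAAA 52 bases before it on the opposite strand, and Dpp4 AGATAA at 32 and TATAAA at 227 bases. Ace held CAAAGT at 102 and TATAAA at 31 bases, both on the opposite strand, and the printed stretch of Anpep, with 72.8% G and C, held none of the 4. That stretch lies inside Anpep as annotated in GENCODE M21 (chr7:79821803-79861059). The annotated start farther upstream was not searched, and which start enterocytes use was not tested. A match is a match of letters and was not tested as a binding site.

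In the annotation of the same build (GENCODE M21), Mme, Mep1a, Xpnpep2 and Naaladl1 overlapped no other gene. Ace overlapped exons of the antisense gene Gm11651 (56 UMIs in all) and Dpp4 those of the antisense gene Gm13561 (49 UMIs). Enpep and Mep1b each held a processed pseudogene on the other strand (3 and 8 UMIs). Anpep, at chr7:79821803-79861059, shared its strand but no exon with Gm44974, an unclassified transcript with 7913 UMIs.

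The tables held 9791 barcodes with 42150623 UMIs in the Adipfl/fl library and 11838 barcodes with 63370798 UMIs in the Villi-Cre library, where a UMI (unique molecular identifier) marks 1 captured RNA molecule near its 3′ end, so that counts were not divided by transcript length. Barcodes with more than 500 genes and under 25% of UMIs from genes whose symbol starts with mt- were kept, which left 3069 and 5555 cells (31.3% and 46.9%), fewer than the study retained under the same stated limits. Their median depth was 4838 and 4749 UMIs, and 3 of the kept barcode sequences occurred in both libraries. Adipoq had 1 and 0 UMIs over all barcodes, so the deletion could not be checked. The study's supplement calls the cells ileum. Markers of the segment were mixed in the 3 classes of enterocytes: of distal genes, Fabp6 and Slc10a2 had at most 9.55 CPM and 4.76 CPM, where CPM is the number of UMIs of a gene per 1000000 UMIs of the class, but Slc51a, Slc51b and Osr2 reached 496 CPM, 336 CPM and 151 CPM. The distal gene Fgf15 had at most 13.6 CPM. Of proximal genes, Fabp1 reached 10896 CPM, Lct 1161 CPM, Adh6a 525 CPM, Onecut2 78.4 CPM and Gata4 75.4 CPM. Slc40a1 and Cybrd1, also proximal, had at most 8.81 CPM and 4.19 CPM.

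Cells were grouped without use of the 9 genes, none of which was among the genes that drove the clustering. Clusters were named from marker genes: stem-like (28 and 85 cells in the Adipfl/fl and the Villi-Cre library), cycling transit-amplifying or TA-like (54 and 130), villus bottom-like (226 and 441, cluster 4), mid-villus-like (368 and 754, clusters 8 and 6) and villus tip-like (1115 and 2359, clusters 0, 2, 1 and 7). Clusters 12 and 3 were absorptive but carried fewer than 3 markers of any zone and stayed unnamed. The 9 absorptive clusters were put in order by a villus score, the mean level of 10 villus tip landmarks minus that of 12 villus bottom landmarks, which gave the order 4, 8, 12, 6, 3, 0, 2, 1 and 7. None of the 9 peptidases is a landmark. Clusters are parts of the same 2 libraries and not replicates. Intervals in brackets are exact Poisson 95% intervals and cover counting error only.

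All 9 peptidases were low in crypt cells and higher along the villus, and none had its highest level in the cluster with the highest tip score. Together they took 0.0546% and 0.0650% of all UMIs in TA-like cluster c0 (the Adipfl/fl library first, here and below), 0.367% and 0.393% in villus bottom-like cells, 0.827% and 0.894% in mid-villus cluster 6, and 0.143% and 0.168% in villus tip cluster 7. From TA-like to villus bottom-like cells, 9 of 9 were at least 2-fold higher in both libraries, beside 9.64% of the 8627 genes with enough UMIs, and 0 were at least 2-fold lower, beside 14.8%. From villus bottom-like to mid-villus-like cells, 5 of 9 (Ace, Dpp4, Mme, Mep1a and Xpnpep2) were at least 2-fold higher, beside 3.32% of 8846 genes, and 0 were lower, beside 9.44%. From mid-villus-like to villus tip-like cells, 2 of 9 (Enpep and Mep1b) were at least 2-fold lower, beside 31.6% of 8040 genes, and 0 were higher, beside 7.45%. Set against the villus bottom directly, 3 of 9 (Ace, Mme and Mep1a) were at least 2-fold higher in villus tip-like cells, beside 9.5% of 8536 genes, and 0 were lower, beside 40.7%. The villus tip-like class is uneven: cluster 0 carried 3 of 10 tip markers, and clusters 1 and 7 carried 9 of 10. In cluster 1 Ace was at 275 CPM and 223 CPM and in cluster 7 at 153 CPM and 97.4 CPM, against 162 CPM and 146 CPM at the bottom, and Mme in cluster 7 was at 155 CPM and 164 CPM against 161 CPM and 139 CPM. With mitochondrial shares taken from protein-coding genes alone, 7637 and 9729 barcodes were kept, of which 4762 and 4503 lay in unnamed clusters. The mid-villus-like class then had 229 and 451 cells, so the classes were not made up as above. There 0 of 9 were at least 2-fold higher (8.51% of all genes) and 2 lower (52.3%) at the tip than at the bottom, and 7 were lower at the tip than in the middle (39.5%). Anpep, Ace, Dpp4 and Xpnpep2 turned to below their villus bottom-like level in both libraries.

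**Figure D1:**
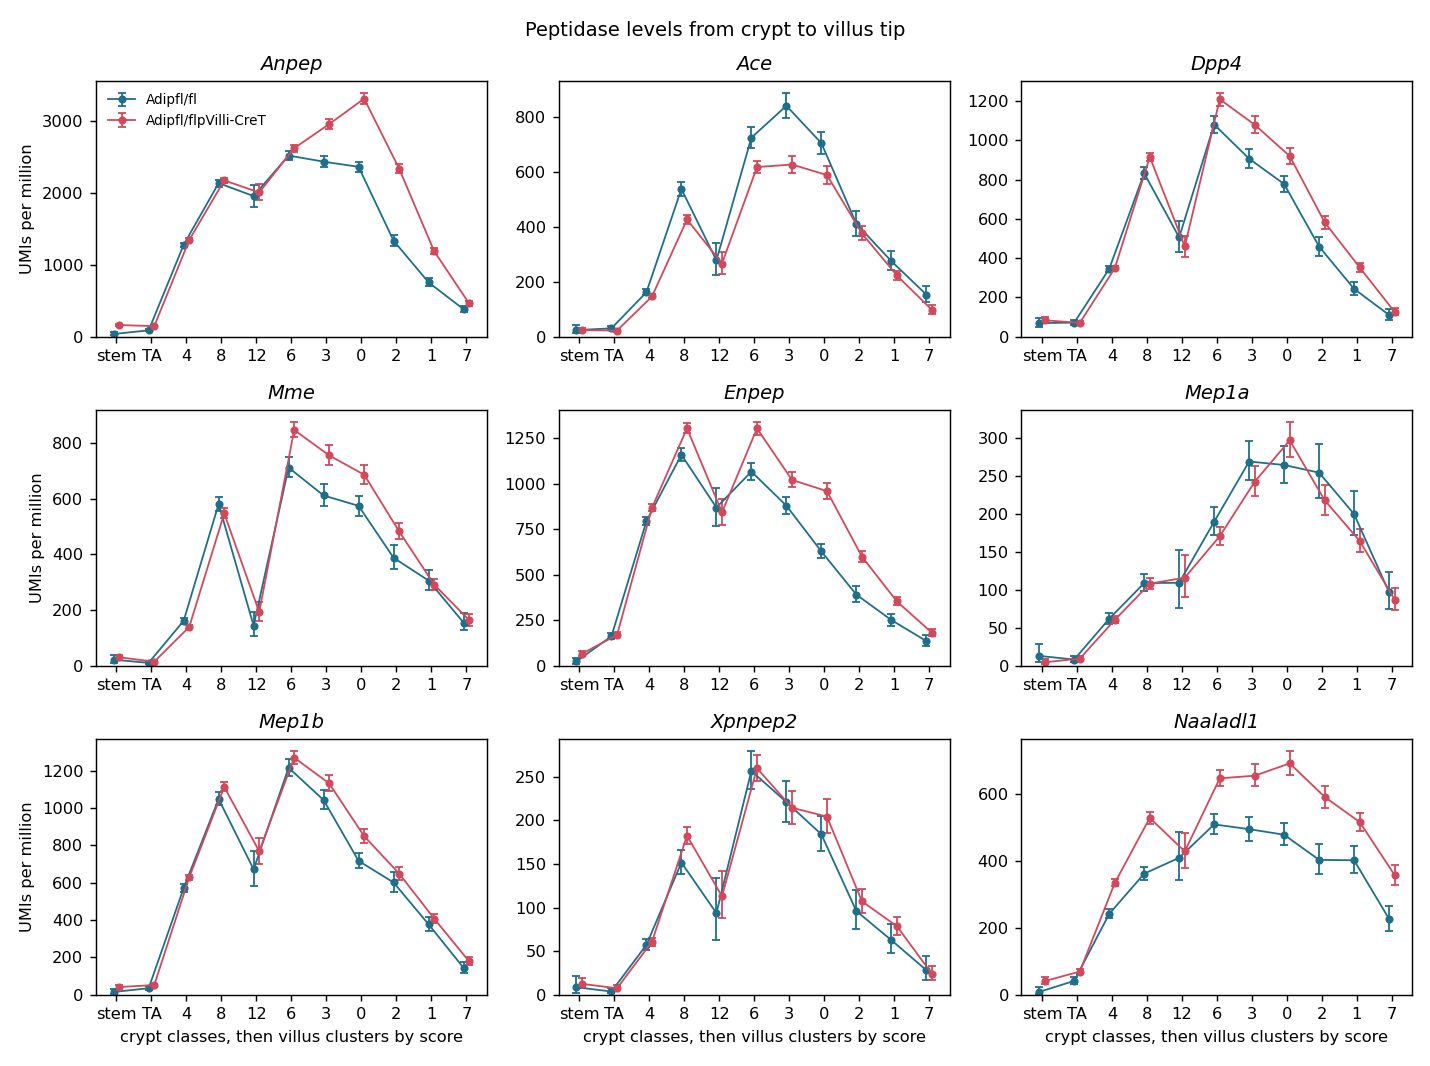
Level of each peptidase (CPM, linear axes from 0, 1 panel per gene) in stem-like and TA-like cells and in the 9 absorptive clusters in order of villus score, with the Adipfl/fl and the Villi-Cre library as separate lines and bars for exact Poisson 95% intervals. Every panel is low in the crypt, reaches its highest level in cluster 8, 6, 3 or 0 and is lower again in cluster 7. Cluster 12, led by Fgf15, lies below both of its neighbours for Anpep, Ace, Dpp4, Mme, Enpep, Mep1b and Xpnpep2, but not for Mep1a, nor for Naaladl1 in the Adipfl/fl library.

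Cluster 7 was the highest cluster of none of the 9 genes, and the factors from the highest cluster to it were unequal. Any other highest cluster is above cluster 7 by definition. No share of all genes was taken for these factors. From its highest cluster to cluster 7, Dpp4 was 9.81-fold lower (7.78 to 12.5) in the Adipfl/fl library and 9.65-fold lower (8.36 to 11.2) in the Villi-Cre library. Xpnpep2 was 9.07-fold (5.75 to 15.2) and 10.8-fold (7.80 to 15.4) lower. Naaladl1 changed least, by 2.25-fold (1.89 to 2.68) and 1.93-fold (1.75 to 2.14), and its interval lay below that of each of the other genes except Mep1a in the Adipfl/fl library. Mep1a was between, at 2.78-fold (2.14 to 3.67) and 3.41-fold (2.83 to 4.14). Cluster 7 therefore kept 44.5% and 51.7% of the highest level of Naaladl1, 36.0% and 29.3% of that of Mep1a, and 9.25% to 21.8% of that of the other 7 genes. The median share of mitochondrial UMIs differed along the same order, with 6.10% in cluster 4, 6.31% in cluster 8, 14.0% in cluster 6, 21.9% in cluster 0 and 19.7% in cluster 7. The median depth went from 20554 UMIs in cluster 4 to 3202 in cluster 0 and 3655 in cluster 7. The part of mitochondrial share and depth in these levels was not tested.

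The aminopeptidases Anpep and Enpep had the most UMIs and differed in where they were high. Anpep was at 1277 CPM (1247 to 1307) and 1344 CPM (1323 to 1365) in villus bottom-like cells, 2284 CPM and 2346 CPM in mid-villus-like cells and 1479 CPM and 1867 CPM in villus tip-like cells. By cluster it was highest in cluster 6 of the Adipfl/fl library, at 2518 CPM (2451 to 2586), where the interval overlapped that of cluster 3 (2434 CPM), and in cluster 0 of the Villi-Cre library, at 3309 CPM (3233 to 3387). Anpep thus had its highest level later on the score in the Villi-Cre library.

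Enpep was the earliest of the 9. Its level was already 162 CPM (144 to 181) and 169 CPM (156 to 183) in TA-like cells and 793 CPM and 868 CPM in villus bottom-like cells. The highest cluster was cluster 8, with 1159 CPM and 1303 CPM, although in the Villi-Cre library cluster 6 had an overlapping interval. Villus bottom-like cells had 68.5% and 66.6% of its highest level, against 16.5% to 50.7% for the other 8 genes. In villus tip-like cells Enpep was 0.525-fold (0.497 to 0.556) and 0.614-fold (0.593 to 0.636) its villus bottom-like level, where 7 of the other 8 were higher at the tip than at the bottom as a class and Mep1b was lower, at 0.919-fold and 0.852-fold. In cluster 7 alone Anpep (381 CPM and 461 CPM) and Dpp4 (110 CPM and 125 CPM) were below their villus bottom-like levels too. So were Ace, Mep1b and Xpnpep2 in both libraries, and Mme and Naaladl1 in the Adipfl/fl library only. Mep1a was above its villus bottom-like level there in both. Enpep supplied 38.0% and 32.6% of the UMIs of the 9 genes in TA-like cluster c0, 21.6% and 22.1% in villus bottom-like cells and 9.47% and 10.8% in cluster 7.

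Dpp4 and Xpnpep2, which act at proline, were higher in mid-villus-like cells than at the bottom or tip, as were the others except Mep1a. Dpp4 was at 345 CPM and 349 CPM in villus bottom-like, 929 CPM (904 to 955) and 1029 CPM (1011 to 1048) in mid-villus-like, and 487 CPM and 509 CPM in villus tip-like cells. Xpnpep2 had fewer UMIs, with 57.3 CPM and 61.0 CPM, then 193 CPM (181 to 205) and 212 CPM (204 to 221), then 114 CPM and 107 CPM. Both were highest in cluster 6 in both libraries, with an overlapping interval in cluster 3 for Xpnpep2 in the Adipfl/fl library. Mme and Mep1b were highest in cluster 6 in both libraries too. In TA-like cells Dpp4 had 6.58% and 5.80% of its highest level and Xpnpep2 1.47% and 2.88%, from 7 and 28 UMIs. In stem-like cells they had 6.38% and 6.88%, and 3.36% and 4.83%, the latter from 4 and 22 UMIs.

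Ace, which removes dipeptides from the other end, was at 162 CPM (151 to 173) and 146 CPM (139 to 154) in villus bottom-like cells and 3.78-fold (3.51 to 4.07) and 3.42-fold (3.24 to 3.62) higher in mid-villus-like cells. Its highest cluster was cluster 3, with 842 CPM (797 to 888) and 627 CPM (596 to 660), and in the Villi-Cre library cluster 6 had an overlapping interval. Its level was lower in the Villi-Cre library in both of these classes and in that cluster.

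Among the endopeptidases, Mme differed most between the bottom and the middle of the villus. It went from 161 CPM (151 to 172) and 139 CPM (133 to 146) in villus bottom-like cells to 632 CPM (611 to 654) and 663 CPM (648 to 678) in mid-villus-like cells, 3.92-fold (3.64 to 4.23) and 4.76-fold (4.51 to 5.03). Cluster 12, which lies between clusters 8 and 6 on the score and is led by Fgf15 and Lypd8l, held Mme at 144 CPM and 193 CPM, against 581 CPM and 547 CPM in cluster 8 and 712 CPM and 847 CPM in cluster 6. Anpep was nearer to its neighbours there, at 1955 CPM and 2005 CPM against 2134 CPM and 2172 CPM in cluster 8. Cluster 12 had 63 and 151 cells and a median of 19.3% mitochondrial UMIs.

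The meprins parted along the villus. Mep1b, the membrane-bound beta subunit, was highest in cluster 6, at 1215 CPM (1169 to 1263) and 1269 CPM (1236 to 1303), and was 0.472-fold (0.449 to 0.495) and 0.457-fold (0.442 to 0.472) that of mid-villus-like cells in villus tip-like cells. Mep1a, the alpha subunit, was 1.57-fold (1.43 to 1.73) and 1.49-fold (1.39 to 1.59) higher in villus tip-like than in mid-villus-like cells, the only gene of the 9 for which this ratio was above 1 in both libraries. It had 61.9 CPM and 60.3 CPM in villus bottom-like, 140 CPM and 132 CPM in mid-villus-like and 221 CPM and 197 CPM in villus tip-like cells. Within the villus tip-like class, Mep1a was above its mid-villus-like level in clusters 0, 2 and 1 in both libraries. In cluster 7 it was below that level, at 96.8 CPM and 87.0 CPM. Its highest clusters were 3 in the Adipfl/fl library, with an overlapping interval in cluster 0, and 0 in the Villi-Cre library.

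Naaladl1 was at 241 CPM (229 to 255) and 334 CPM (324 to 345) in villus bottom-like, 419 CPM and 574 CPM in mid-villus-like and 405 CPM and 550 CPM in villus tip-like cells. Its level in the last of these was 0.968-fold (0.908 to 1.03) and 0.958-fold (0.923 to 0.995) that of mid-villus-like cells, nearer to 1 than for any other of the 9 genes. Its share of the UMIs of the 9 genes went from 6.58% and 8.50% in villus bottom-like cells to 15.8% and 21.3% in cluster 7.

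**Figure D2:**
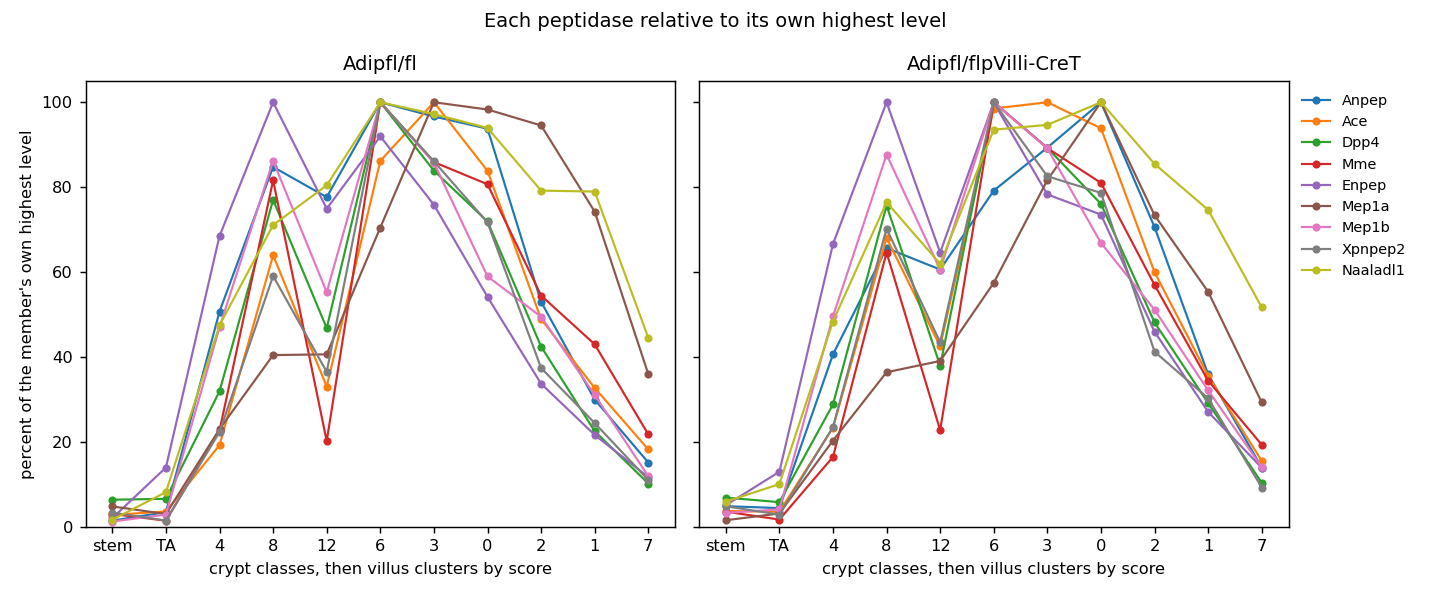
Each peptidase as a percentage of its own highest level, with stem-like and TA-like cells and the 9 absorptive clusters in order of villus score on the x axis and 1 panel per library. Enpep leads at the left (68.5% and 66.6% in villus bottom-like cluster 4), Mep1a and Naaladl1 keep the most at the right (36.0% and 29.3%, and 44.5% and 51.7%, in cluster 7), and Mme has the deepest dip in cluster 12.

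**Figure D3:**
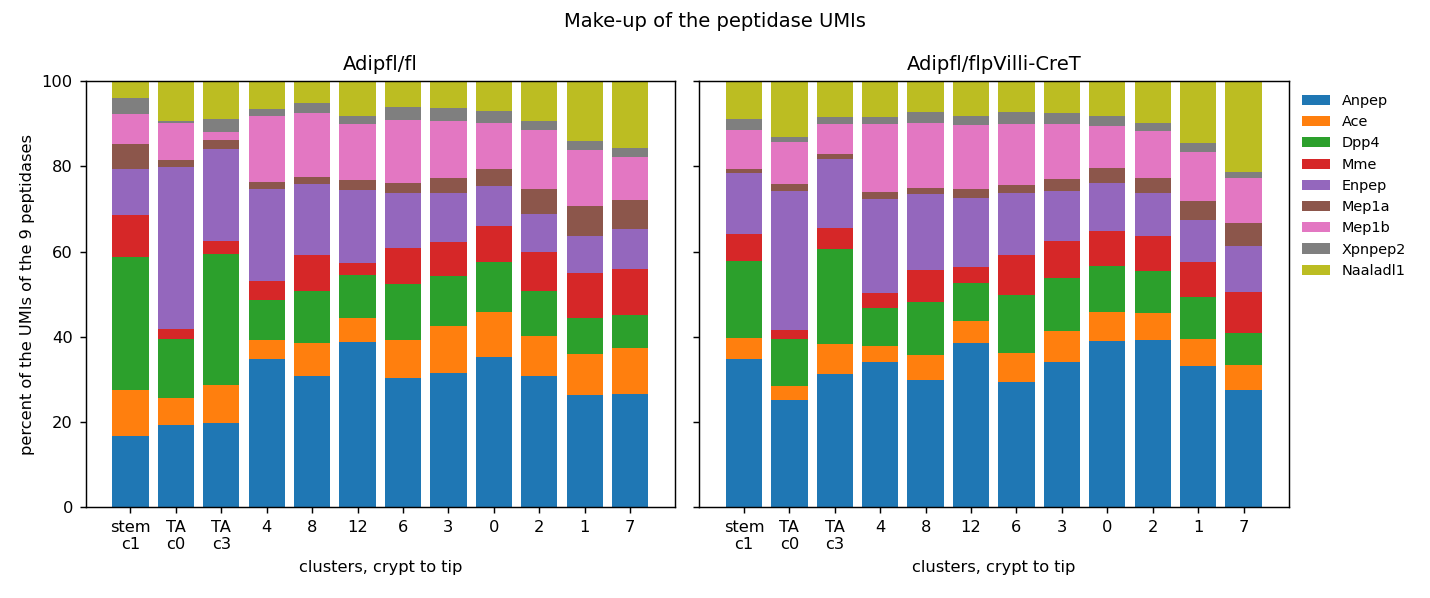
Share of the UMIs of the 9 peptidases that each gene supplied (percent, stacked to 100) in crypt clusters c1, c0 and c3 and in the absorptive clusters in order of villus score, 1 panel per library. Enpep takes 38.0% and 32.6% in TA-like cluster c0 and 9.47% and 10.8% in cluster 7, and Naaladl1 takes 15.8% and 21.3% in cluster 7.

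Enterocytes were also divided into 5 bins of equal number over both libraries by the villus score alone. All 9 genes had their highest level in neither the first nor the last bin in both libraries, beside 28.7% of 9327 genes. Enpep went from 885 CPM and 1012 CPM in bin 1 through 1078 CPM and 1271 CPM in bin 2 to 570 CPM and 827 CPM, 332 CPM and 511 CPM, and 197 CPM and 259 CPM in bins 3, 4 and 5. Mep1a went from 74.1 CPM and 76.9 CPM in bin 1 through 159 CPM and 153 CPM to its highest level in bin 3, 273 CPM and 262 CPM, and was at 142 CPM and 137 CPM in bin 5. Enpep was thus highest in the bin before that of Mep1a. Ace, Dpp4, Mme, Mep1b and Xpnpep2 were also highest in bin 2 in both libraries, and Anpep in the Adipfl/fl library. The bin of the highest level therefore did not set Enpep apart from these genes. With a mitochondrial limit of 10%, which left 28 and 64 villus tip-like cells, 1 of 9 genes had its highest level in neither end bin. No share of all genes was taken under that limit, so this last count has no background beside it.

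Depth differed between zones, so shares of cells with at least 1 UMI were also taken after each cell was thinned to 2000 UMIs. In mid-villus-like cells Anpep was then detected in 95.9% of 368 and 97.9% of 752 cells (100% of cells unthinned in both), Dpp4 in 80.4% and 83.5% (99.2% and 99.3%) and Mep1a in 23.1% and 22.3% (67.9% and 67.8%). In villus tip-like cells Anpep was detected in 78.6% of 1014 and 83.2% of 2205 cells (87.4% and 90.6%), Dpp4 in 55.9% and 56.6% (70.6% and 71.4%) and Mep1a in 32.2% and 30.7% (45.9% and 45.6%). T cell-like barcodes, which should lack Anpep and Mep1a, gave 11.7% of 351 and 22.9% of 407 for Anpep (22.0% and 31.9%) and 1.71% and 3.44% for Mep1a (4.29% and 5.71%). Median depths were 12879 and 12577 UMIs in mid-villus-like cells, 3516 and 3433 in villus tip-like cells and 4625 and 4091 in T cell-like barcodes. Thinning left out 101 and 154 villus tip-like cells, 22 and 48 T cell-like barcodes, and 0 and 2 mid-villus-like cells.

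Between the libraries, none of the 9 peptidases differed 1.5-fold in the villus bottom-like, mid-villus-like or villus tip-like class. In mid-villus-like cells 0 of 9 were at least 1.5-fold higher in the Villi-Cre library, beside 2.52% of 9232 genes, and 0 at least 1.5-fold lower, beside 2.94%. In villus bottom-like cells both counts were 0, beside 2.6% and 2.43% of 9796 genes, and in villus tip-like cells both were 0, beside 3.51% and 8.3% of 7698 genes. At the tip the count in either direction was 1 of the 8 with enough UMIs with a mitochondrial limit of 10% (37.1% of all genes) and 3 of 9 with mitochondrial shares from protein-coding genes alone (9.47%). The median log2 fold change of the 9 genes (Villi-Cre over Adipfl/fl) was 0.08 in mid-villus-like, 0.07 in villus bottom-like and 0.03 in villus tip-like cells, beside medians of -0.01, 0.00 and -0.07 over all genes compared. The villus tip-like class was made up differently in the libraries: its largest cluster was cluster 0 in the Adipfl/fl library (527 of 1115 cells) and cluster 1 in the Villi-Cre library (720 of 2359 cells). Within its clusters 0, 2, 1 and 7 the median of the 9 genes was 0.24, 0.32, 0.33 and 0.19, beside 0.00 to 0.03 over all genes compared.

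Smaller differences kept 1 direction across clusters for 4 genes. Across the 9 absorptive clusters, 3 of 9 genes (Anpep, Mep1b and Naaladl1) were higher in the Villi-Cre library in every cluster, beside 10.7% of the 2171 genes with enough UMIs in all of them, and 1 of 9 (Ace) was lower in every cluster, beside 4.88%. The clusters of a library share its preparation and pool of mice, so that 9 clusters are not 9 repeats.

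Ace was 0.905-fold (0.833 to 0.983) its Adipfl/fl level in villus bottom-like cells, 0.820-fold (0.785 to 0.856) in mid-villus-like cells and 0.712-fold (0.672 to 0.755) in villus tip-like cells as a class. Within tip clusters 0, 2, 1 and 7 it was 0.835-fold, 0.914-fold (0.804 to 1.04), 0.810-fold and 0.635-fold, and in the score bins 0.759-fold to 0.982-fold. Over the 9 absorptive clusters the fold ran from 0.635 (0.491 to 0.824) in cluster 7 to 0.959 (0.738 to 1.25) in cluster 12, and in 7 clusters the interval excluded 1. After thinning, Ace was detected in 66.6% and 59.7% of mid-villus-like cells and in 55.1% and 43.8% of villus tip-like cells. The part of the make-up of the villus tip-like class in its shares was not tested.

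Naaladl1 was higher by about the same factor in the 3 zones, 1.38-fold (1.30 to 1.47) in villus bottom-like, 1.37-fold (1.31 to 1.44) in mid-villus-like and 1.36-fold (1.28 to 1.43) in villus tip-like cells. By cluster it ran from 1.05-fold (0.846 to 1.30) in cluster 12 to 1.58-fold (1.32 to 1.90) in cluster 7, with 8 of 9 intervals above 1. After thinning it was detected in 56.0% and 65.8% of mid-villus-like cells. The same direction held in the 5 score bins, at 1.33-fold to 1.46-fold.

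The aminopeptidases differed toward the tip. Anpep was 1.05-fold (1.02 to 1.08) and 1.03-fold (1.01 to 1.05) in villus bottom-like and mid-villus-like cells, and 1.26-fold (1.23 to 1.30) in villus tip-like cells, with 1.75-fold (1.64 to 1.87) in cluster 2. With a mitochondrial limit of 10%, which left 28 and 64 villus tip-like cells, the fold of Anpep at the tip turned to -0.45 on the log2 scale. Enpep was 1.09-fold, 1.16-fold and 1.28-fold (1.21 to 1.35) in the same zones, reached 1.53-fold in clusters 0 and 2, and was 0.970-fold (0.837 to 1.12) in cluster 12. Within clusters 0, 2 and 1 taken singly, Anpep was 1.40-fold, 1.75-fold and 1.57-fold higher, so the fold of the whole class was smaller than that of each of these clusters. Within the score bins, which hold cells of like score, Anpep and Enpep were 1.60-fold (1.5 to 1.7) and 1.54-fold (1.37 to 1.73) higher in bin 4, and Anpep 1.56-fold (1.43 to 1.7) in bin 5. These were the genes past 1.5-fold in those bins, 2 of 9 in bin 4 and 1 of 9 in bin 5, beside 11.6% and 11.2% of all genes.

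Dpp4 was higher in 8 of 9 clusters, 6 of them beyond counting error, with 1.01-fold (0.956 to 1.07) at the villus bottom and 1.11-fold (1.07 to 1.14) in mid-villus-like cells. At the tip it was 1.05-fold (0.992 to 1.10) in the class as a whole, but 1.18-fold, 1.27-fold, 1.45-fold (1.25 to 1.68) and 1.14-fold in clusters 0, 2, 1 and 7, and it was higher in all 5 score bins beyond counting error, at 1.12-fold to 1.36-fold.

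The other genes differed less or without a fixed direction. Mep1b was higher in all 9, at 1.04-fold to 1.24-fold, with 4 intervals above 1. Mme was higher in 6 clusters and lower in 3, from 0.865-fold (0.796 to 0.940) in cluster 4 to 1.24-fold (1.14 to 1.34) in cluster 3 and 1.34-fold in cluster 12, where the interval held 1. Mep1a was higher in 2 clusters, and its interval excluded 1 in cluster 1 only, at 0.823-fold (0.694 to 0.979). Xpnpep2 was higher in 7, and its interval excluded 1 in cluster 8 only, at 1.2-fold (1.08 to 1.34).

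**Figure D4:**
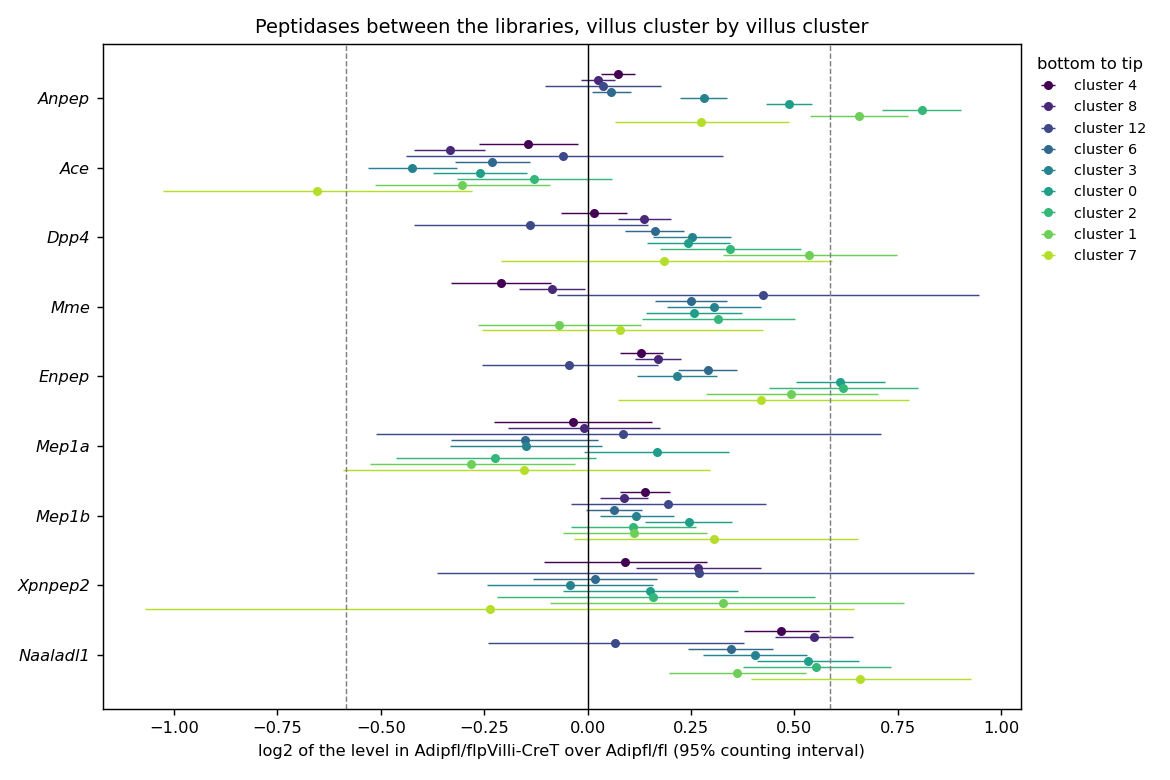
Log2 of the fold between libraries (Villi-Cre over Adipfl/fl) for each peptidase in the 9 absorptive clusters, with exact 95% intervals for counting error and dashed lines at 1.5-fold in either direction. All 9 points of Ace lie below 0, all 9 of Anpep, Mep1b and Naaladl1 lie above it, and Mme has points on both sides.

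Outside the absorptive clusters all 9 genes had UMIs, and there enterocyte RNA was itself present. In goblet-like cells Anpep was at 406 CPM and 794 CPM and in T cell-like barcodes at 119 CPM and 336 CPM. The 9 genes were higher in the Villi-Cre library in both of these classes, with a median log2 fold change of 0.86 in goblet-like cells and 1.5 in T cell-like barcodes, beside 0.11 and -0.06 over all genes compared. To set this beside free enterocyte RNA, the number of UMIs that such RNA would give was computed for each gene from the UMIs of Apoa1, Fabp1 and Fabp2 in the class, at the ratio measured in mid-villus-like and villus tip-like cells of the same library. In T cell-like barcodes these reference genes had 4631 and 13435 UMIs. Mme, Enpep, Mep1a, Xpnpep2 and Naaladl1 had 0.858 to 1.17 times the expected UMIs there in both libraries, with every interval holding 1. Mep1a and Xpnpep2 had only 18 and 14 UMIs there in the Adipfl/fl library. Whether the UMIs of Mme, Enpep, Mep1a, Xpnpep2 and Naaladl1 in these barcodes came from free enterocyte RNA was not tested.

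Dpp4 was above that expectation in T cell-like barcodes. It had 149 UMIs against 64.5 expected in the Adipfl/fl library, 2.31 times (1.95 to 2.71), and 292 against 221 in the Villi-Cre library, 1.32 times (1.18 to 1.48). Anpep, with 216 and 708 UMIs, was also above the expectation in both libraries. In the Villi-Cre library the interval of Anpep overlapped that of Dpp4. Ace was above the expectation in the Adipfl/fl library only, and Mep1b was below it there. Expected UMIs were also taken from the other 8 peptidases, because barcodes picked for few reference UMIs have a low expectation from those same genes. In the 20% of barcodes with the least Apoa1, Fabp1 and Fabp2 (74 and 91 barcodes), Dpp4 had 22 UMIs against 5.02 expected in this way, 4.38 times (2.75 to 6.64), and 19 against 7.24, 2.62 times (1.58 to 4.10). Anpep had 0.682 times (0.373 to 1.14) and 1.35 times (0.897 to 1.95) in the same barcodes, so that both intervals held 1. For Anpep, however, the other 8 genes include Dpp4, whose 22 and 19 UMIs raise the expectation. These values therefore cannot set Anpep apart from Dpp4. The UMIs of Dpp4 in T cell-like barcodes were spread over 113 of 373 and 120 of 455 barcodes, and the richest barcode held 3.36% and 7.53% of them. After thinning, 14.0% and 17.7% of T cell-like barcodes had a Dpp4 UMI, beside 11.7% and 22.9% for Anpep and 5.70% and 10.1% for Enpep, so that by share Dpp4 was below Anpep in the Villi-Cre library.

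In the crypt, Dpp4 was above the expectation in stem-like and TA-like cells and Enpep in TA-like cells. Stem-like cluster c1 carried all 10 stem markers but also 5 of 5 fibroblast markers and 6 of 9 Paneth cell markers, and the part of such cells in its levels was not tested. It had 32 UMIs of Dpp4 against 11.1 expected, 2.88 times (1.97 to 4.07), and 146 against 67.5, 2.16 times (1.83 to 2.54), while Mme had 1.24 times (0.595 to 2.28) and 1.14 times (0.851 to 1.49) and Enpep 0.895 times (0.447 to 1.60) and 1.43 times (1.18 to 1.71). In stem-like cells of the Villi-Cre library Anpep (282 UMIs) and Naaladl1 (72 UMIs) were also above the expectation. In the Adipfl/fl library, with 17 and 4 UMIs, they were not. TA-like cells had 300 UMIs of Enpep against 41.2, 7.29 times (6.49 to 8.16), and 633 against 161, 3.92 times (3.62 to 4.24). Naaladl1 had 3.70 times (2.92 to 4.62) and 2.76 times (2.44 to 3.12), and Dpp4 3.55 times (2.97 to 4.21) and 1.96 times (1.73 to 2.22). Mme was at 0.703 times (0.424 to 1.10) and 0.583 times (0.438 to 0.761) in TA-like cells. Anpep and Mep1b were also above 1 in TA-like cells in both libraries, by 1.31 to 1.65 times, and Mme and Xpnpep2 were not. Ace, with 56 and 83 UMIs there, was above the expectation beyond counting error in the Adipfl/fl library only. The intervals of Mep1a, with 15 and 35 UMIs, held 1 in both libraries. The expectation depends on which enterocytes the RNA came from: in the Adipfl/fl library Fabp1 went from 2362 CPM in villus bottom-like to 10896 CPM in mid-villus-like cells, where Enpep went from 793 CPM to 1122 CPM and Dpp4 from 345 CPM to 929 CPM. For each Fabp1 UMI, RNA from villus bottom-like cells would thus give more Enpep and Dpp4 UMIs than RNA from mid-villus-like cells. The levels of Apoa1 and Fabp2 by zone are not given here. The part of RNA from villus bottom-like cells in these ratios was not tested.

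**Figure D5:**
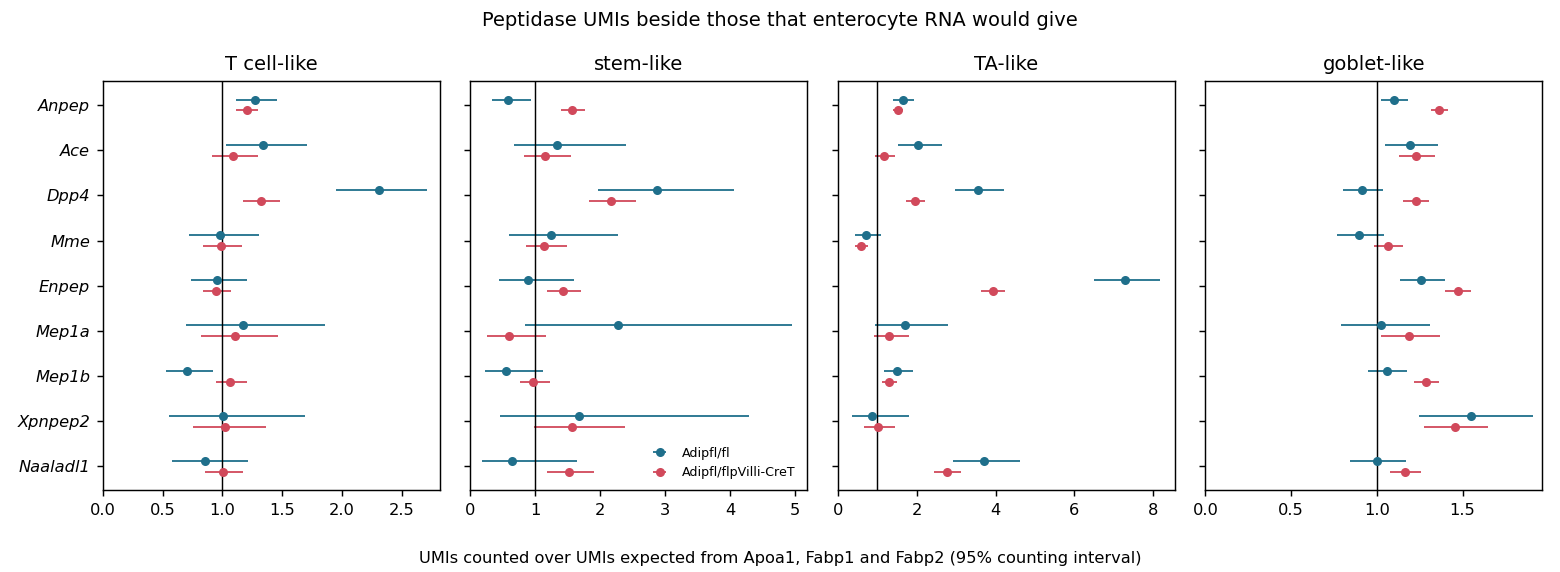
UMIs of each peptidase divided by the number expected from enterocyte RNA (linear axis, 1 is equal, bars are exact Poisson 95% intervals) in T cell-like, stem-like, TA-like and goblet-like barcodes of each library. Dpp4 lies above 1 in T cell-like barcodes (2.31 and 1.32), as Anpep does, and in stem-like cells (2.88 and 2.16). Enpep is farthest above 1 in TA-like cells (7.29 and 3.92).

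Over the 11 named classes of both libraries (22 points that share 2 libraries and their depth), the log2 levels of the 9 genes followed each other closely, as a description with no test. The points include crypt, immune and other classes that are low in all 9 genes. A high r therefore does not show a like course along the villus, and no distribution of r over all genes was taken. The pair most alike was Anpep and Mep1b (Pearson's r = 0.987) and the pair least alike Enpep and Mep1a (r = 0.796). Among 6407 genes, the gene most like Anpep was Mep1b. Mep1b was most like Slc5a1, the sodium and glucose transporter (r = 0.990), Enpep like Slc51a, a subunit of the bile acid exporter (r = 0.988), and Mme like Asah2, the neutral ceramidase (r = 0.988), with Lct close behind (r = 0.979). Ace was most like Sec14l2 and next Dpep1, a dipeptidase (r = 0.974), Dpp4 like the retinol-binding gene Rbp2 (r = 0.973), Xpnpep2 like Gpt (r = 0.976), Mep1a like Dgkq (r = 0.958) and Naaladl1 like H2-Q2 (r = 0.965). Slc5a1 and Rbp2 were also among the markers used to name mid-villus-like clusters.

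The other genes of protein digestion did not share 1 pattern. Over the 9 peptidases the median log2 fold change from villus bottom-like to villus tip-like cells, averaged over the libraries, was 0.73, against -0.81 over all 8536 genes compared. Of all these genes, 9.5% were at least 2-fold higher and 40.7% at least 2-fold lower at the tip in both libraries. These shares stand beside the counts of each list below. Of the 11 other apical or surface peptidases, 8 had enough UMIs, and 2 were at least 2-fold higher and 1 lower at the tip in both libraries (median 0.51). Ggt1, gamma-glutamyltransferase, was 3.82-fold and 4.19-fold higher, and the membrane serine protease St14 2.48-fold and 2.46-fold. Of 15 cytosolic peptidases, 1 was higher and 5 lower (median -0.83): Pepd, which splits dipeptides ending in proline, was 2.79-fold and 2.98-fold higher, and Acy1, an aminoacylase, was at 0.206-fold and 0.173-fold.

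Of 12 peptide and amino acid transporters, 3 were higher and 5 lower (median -0.22), beside 9.5% and 40.7% of all genes. The count of transporters that were lower was thus near the share of all genes. The peptide transporter Slc15a1 was 4.22-fold and 4.45-fold higher at the tip, the neutral amino acid transporter Slc6a19 10.3-fold and 9.81-fold higher, and the glutamate transporter Slc1a1 was at 0.0274-fold and 0.0338-fold. Of the 5 disaccharidases and phosphatase genes, 2 were higher and 1 lower (median 0.71), with alkaline phosphatase Alpi 3.61-fold and 4.29-fold higher and sucrase-isomaltase Sis at 0.267-fold and 0.254-fold. Slc15a1, the transporter of the products of these peptidases, was 1.28-fold and 1.42-fold higher in the Villi-Cre library in mid-villus-like and villus tip-like cells, beside the 1.37-fold and 1.36-fold of Naaladl1 and the 0.820-fold and 0.712-fold of Ace.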

How the data were processed

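Small intestinal epithelium was profiled in 2 libraries, 1 per genotype, by 10x 3′ single-cell RNA sequencing. The authors converted reads with bcl2fastq 5.0.1 and deposited raw UMI counts per gene and barcode from Cell Ranger (7.1.0 in the table header), on mm10 per the submitters' notes, without normalization.

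From these counts, barcodes with more than 500 genes and under 25% mt- UMIs were clustered in Seurat 5.3.0 (R 4.3.3; LogNormalize to 10000, 2000 variable genes without the 9 peptidases, 20 components, Louvain resolution 0.8, crypt clusters split at 0.4). A class name needed at least 3 fixed markers with 10 or more UMIs and a level at least 2-fold that of all remaining cells. Clusters with over 90% of cells from 1 library stayed unnamed, and the rule was completed after the clusters were seen. UMIs were summed per class, cluster or score bin, scaled to CPM and given exact Poisson 95% intervals, and folds exact intervals of a ratio of counts. No test was run. Genes with at least 50 UMIs in a comparison were counted in its background. Cells were thinned to 2000 UMIs for shares. Doublets were not removed: Scrublet called 3 and 2 barcodes, too few to have worked. Calculations were tested on simulated counts.

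The peptidases and lists were chosen with earlier results of these data known. Besides the 9, the text names for each the most similar genes (Pearson's r of log2(CPM + 1) over the named classes, among genes with at least 50 CPM in a class of each library) and from each list those with the most UMIs or the largest difference between villus tip and bottom. Some genes that this rule selects are left out of the text. Software was scanpy 1.11.5, matplotlib 3.10.9, pandas 2.3.3, scipy 1.17.1 and numpy 2.4.6 under Python 3.11.15.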

Additional observations from a re-analysis of the deposited data

How the results depend on the processing

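Each count and fold was recomputed under other filters, clusterings, totals and weights, and under 1 choice made after seeing the data, the villus score with the unnamed absorptive clusters 3 and 12 included. Of the counts and Dpp4 ratios, 80 values stayed within 1.5 times the reported ones or their intervals and 15 moved. Of the values of single genes, 259 stayed, 128 moved and 18 changed sign. Most that stayed were folds between libraries. Of the folds of the villus tip over the villus bottom, more moved or changed sign than stayed. With the highest Scrublet scores removed, 13 folds of the tip over the bottom moved and 5 stayed, against 10 and 17 between libraries. At resolution 1.2, 8 moved and 10 stayed, and all 27 between libraries stayed. Allowing the 9 genes among the variable genes could not change the clusters, because none of them was among those genes. The 27 and 18 values of that setting, counted above as staying, therefore say nothing about robustness.

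Most changes of sign came with alternatives that changed which barcodes were kept. Others kept the same barcodes and still moved the folds of the tip over the bottom. With mt- UMIs left out of the total, 17 of these folds moved and 1 changed sign. At resolution 0.4 the counts were 12 and 1. With a mitochondrial limit of 10% (28 and 64 villus tip-like cells), 1 gene was at least 2-fold lower at the tip than in mid-villus, beside 11.1% of all genes. Of the 8 with enough UMIs, 1 passed 1.5-fold between libraries at the tip, beside 37.1%. Of the 9, 1 had its highest level in neither end bin, with no share of all genes taken. Log2 folds that changed sign were -0.35 for Anpep at the tip over the bottom in the Villi-Cre library, 0.34 for Mep1b in the Adipfl/fl library, and between libraries 0.0383 for Mme at the bottom and -0.45 for Anpep at the tip. With mitochondrial shares from the 13 protein-coding genes alone, 4762 and 4503 barcodes lay in unnamed clusters. There 0 genes were at least 2-fold higher (8.51% of all genes) and 2 lower (52.3%) at the tip than at the bottom. At the tip 7 were lower than in mid-villus (39.5%), and 3 passed 1.5-fold between libraries (9.47%). The tip over bottom log2 folds that changed sign there (Adipfl/fl, then Villi-Cre) were -1.30 and -0.49 for Anpep, -0.36 and -0.23 for Ace, -1.31 and -0.82 for Dpp4, and -0.79 and -0.72 for Xpnpep2, and in the Adipfl/fl library -0.44 for Mme and -0.17 for Naaladl1. Mep1a between libraries at the tip was 0.0259.

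With a higher minimum of genes per barcode, at resolution 0.4, and with mt- UMIs left out of the total, 1 gene was at least 2-fold lower at the tip than in mid-villus. The first 2 of these settings gave 30% and 27% of all genes, and the third has no such share beside it. Mep1b at the tip over the bottom in the Adipfl/fl library was 0.0219, 0.0607 and 0.101 on the log2 scale in the 3 settings. Within score bins 4 and 5, 2 genes and 1 gene passed 1.5-fold between libraries, beside 11.6% and 11.2% of all genes. Dpp4 in T cell-like barcodes over expectation was 3.31 and 1.54 after the 8% of barcodes with the highest Scrublet scores were removed, and 9.99 and 4.48 in the 20% of barcodes lowest in enterocyte genes, where the choice of barcodes lowers the expectation by construction and the other 8 peptidases gave 4.38 and 2.62. The cause of these shifts was not tested beyond the change in cells named. No paired analysis was possible because each genotype was 1 library and no test was run. Depth limited Mep1a and Xpnpep2 most, which had 65 and 19 UMIs in cluster 7 of the Adipfl/fl library.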

Other observations

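In the barcodes that the filter removed, the levels of Anpep, Ace, Mme and Mep1a were higher than in the kept cells of the same library (for Ace 448 CPM against 315 CPM in the Adipfl/fl library and 340 CPM against 263 CPM in the Villi-Cre library), and those of Dpp4, Enpep, Mep1b, Xpnpep2 and Naaladl1 were lower (for Enpep 427 CPM against 577 CPM and 553 CPM against 719 CPM). Ace was lower and Naaladl1 higher in the Villi-Cre library in the removed barcodes too, with Naaladl1 at 213 CPM and 331 CPM.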
